A study of Mus musculus with 6 samples.

Results

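Cluster 8 of the deposited annotation held 1416 of the 38154 nuclei sequenced from mouse jejunal organoids, and most enterocyte genes examined had their highest level there. They were chosen by the cluster number alone, in all 6 samples, with no use of a gene level or of the culture medium. Single-nucleus RNA-seq had been run on organoids grown from C57BL/6 mice of 8 to 12 weeks and exposed to fibroblast-conditioned medium. In the 3 QCM samples the medium came from mouse embryonic fibroblasts made quiescent by serum deprivation, and in the 3 SCM samples it came from senescent mouse embryonic fibroblasts. The study induced senescence by X-ray irradiation or doxorubicin, and which of these applied to the nuclei is not given in the sources used here. Organoids are an epithelial culture without the gut's own mesenchyme, blood or microbes, and the fibroblasts contributed only what they had released into the medium.

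Enterocytes are the absorptive cells of the small intestine. They leave the crypt, stop dividing and climb the villus, and on the way they build a brush border of microvilli that carries disaccharidases, peptidases and sugar, amino acid and ion transporters. They also package dietary fat into lipoproteins and break down foreign compounds with cytochrome P450, sulfotransferase and glucuronosyltransferase enzymes. HNF4 and HNF1 proteins, GATA4 and CDX2 are among the transcription factors known to act in these cells.

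Levels are given as counts of unique molecular identifiers (UMIs) of a gene per 1000000 UMIs (CPM), summed over the cluster 8 nuclei of a sample, or over all other nuclei of the same sample. A sum cannot tell fewer nuclei with a transcript from less transcript per nucleus. The counts read the 3′ end of transcripts and are not scaled by length, so levels are compared for 1 gene at a time. A ratio is the log2 of (CPM in cluster 8 + 1) over (CPM in the other nuclei of that sample + 1), and a gene's ratio is the median over the 6 samples. The clusters had been made from these same genes, so ratios describe cluster 8 and were not tested. The labels do not say whether samples came from separate mice, and p-values between the media therefore measure only the spread between these samples.

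In QCM, cluster 8 took up 187 of 3791, 253 of 7930 and 395 of 10144 nuclei, and in SCM 11 of 430, 77 of 5026 and 493 of 10833. Shares were thus 4.93%, 3.19% and 3.89% in QCM and 2.56%, 1.53% and 4.55% in SCM. The media overlapped, since SCM replicate 3 lay within the QCM range and the other SCM samples below it. Averaged over samples, QCM had 4.01% ± 0.877 (SD, n = 3) and SCM 2.88% ± 1.54 (SD, n = 3) of nuclei there (two-sided exact permutation test over samples, p = 0.4; the smallest p that 3 against 3 allows is 0.1). By the edgeR quasi-likelihood test on nuclei per cluster the log2 difference was -0.46 ± 0.46 (SE), with a Benjamini-Hochberg adjusted p = 0.825 over 15 clusters. Without SCM replicate 3 it was -1.02 (adjusted p = 0.405, edgeR), and without SCM replicate 2 it was -0.14. Leaving out SCM replicate 1 gave -0.39, and leaving out QCM replicate 1 gave -0.29. The 11 nuclei of SCM replicate 1 gave a 95% Wilson interval of 1.43% to 4.52%, which covers counting error only.

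Depth varied more between samples than between media. Cluster 8 nuclei held medians of 11314, 2401 and 1941 UMIs in QCM and 7936, 3756 and 2037 in SCM. In every sample this was above the median of the other nuclei, which lay between 1565 and 8160. The difference of the mean of medians, SCM minus QCM, was -642 UMIs (two-sided exact permutation test, p = 0.9), and without QCM replicate 1 it was 2405. Sums over cluster 8 came to between 120710 UMIs in SCM replicate 1 and 2729168 in QCM replicate 1, so that 1 UMI was worth 8.28 CPM in the former and 0.366 CPM in the latter. Both replicate 1 libraries stood apart in another way, since 175 cell barcodes of SCM replicate 1 occurred in QCM replicate 1 as well, while other pairs of samples shared 0 to 36. Of the 11 cluster 8 barcodes of SCM replicate 1, 5 occurred in QCM replicate 1, none of them in cluster 8 there. The counts of genes between the media are therefore given with and without these libraries.

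**Figure D1:**
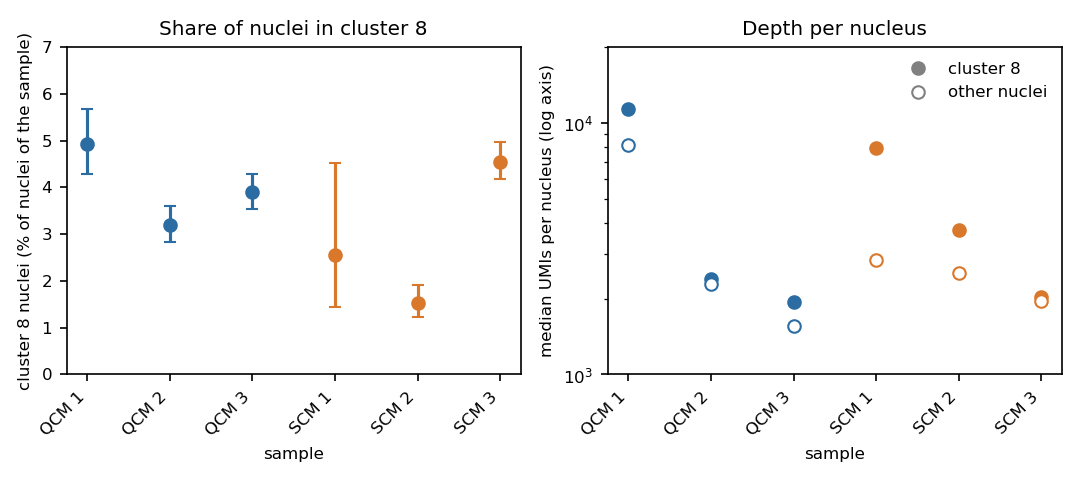
Left, cluster 8 nuclei as a percent of each sample's nuclei, with 95% Wilson intervals as bars; right, median UMIs per nucleus on a log axis, with filled points for cluster 8 and open points for all other nuclei. Blue marks QCM and orange SCM; shares ran from 1.53% to 4.93% and overlapped between the media, and cluster 8 lay above the other nuclei in depth in each sample.

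The 7 genes given as markers of the cluster were all enterocyte transporters or enzymes of metabolism, and all 7 had their highest pooled level in cluster 8 among the 15 clusters. Their ratios ranged from 2.32 to 4.20, with a median of 3.76. For comparison, 442 of the 11972 genes with a mean of at least 5 CPM in cluster 8 (3.69%) had a ratio of at least 1, and the median over these genes was -0.09. Since these markers were named from the same nuclei, their levels are a description.

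Slc13a2 (ENSMUSG00000001095, GRCm38 chromosome 11, 78397087 to 78422217, minus strand), a sodium-coupled carrier of citrate and succinate, had a ratio of 4.20. Its level in cluster 8 was 38.1, 37.6 and 27.8 CPM in QCM and 58, 42.2 and 24.6 CPM in SCM, against 0.506 to 4.86 CPM in the other nuclei. Slc9a3 (ENSMUSG00000036123, chromosome 13, 74121457 to 74169442, plus strand) encodes the apical sodium-hydrogen exchanger NHE3, which takes up sodium in villus cells. It stood at 108, 140 and 160 CPM in QCM and at 99.4, 110 and 196 CPM in SCM, against 2.28 to 16.1 CPM elsewhere. Both genes were several times higher in cluster 8 in 6 of 6 samples, and the media overlapped.

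Slc6a20a (ENSMUSG00000036814, chromosome 9, 123634770 to 123678885, minus strand), a transporter of proline and other imino acids, had a ratio of 3.35. Its level was 152, 92.8 and 101 CPM in QCM and 66.3, 73 and 82 CPM in SCM. All SCM samples lay below all QCM samples, and the difference within cluster 8 was -0.63 ± 0.28 (SE, log2) at an unadjusted p = 0.0487, which did not pass after Benjamini-Hochberg adjustment over all genes in edgeR's quasi-likelihood test. Without QCM replicate 1 it was -0.32. Aspa (ENSMUSG00000020774, chromosome 11, 73304992 to 73329596, minus strand), which splits N-acetylaspartate, stood at 116, 27 and 36.1 CPM in QCM and 66.3, 55.2 and 44 CPM in SCM, with a ratio of 3.76. Fmo5 (ENSMUSG00000028088, chromosome 3, 97628804 to 97655282, plus strand), a flavin monooxygenase, stood at 151, 62.2 and 60.2 CPM in QCM and 41.4, 50.3 and 81.3 CPM in SCM, with a ratio of 3.80. For Aspa and Fmo5 the highest sample was QCM replicate 1 and the media overlapped.

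The remaining markers were carried by few UMIs in some samples. Slc5a12 (ENSMUSG00000041644, chromosome 2, 110597298 to 110647779, plus strand), a sodium-coupled lactate carrier, ranged from 0.746 CPM in SCM replicate 3 to 52.4 CPM in QCM replicate 1. Cyp2j11 (ENSMUSG00000066097, chromosome 4, 96294508 to 96348662, minus strand), a cytochrome P450, had no UMI in SCM replicate 1, where 3 counts would be 24.9 CPM, and reached 32.4 CPM in SCM replicate 2. It was above the other nuclei in 5 of 6 samples, and the other 6 markers were above them in all 6.

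**Figure D2:**
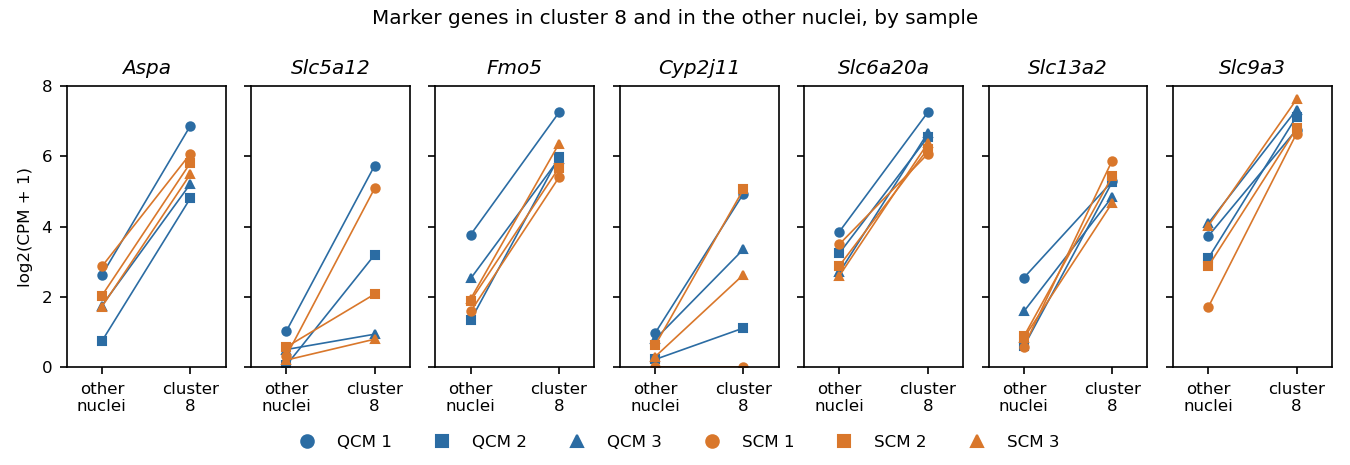
Each panel is 1 marker gene and gives log2(CPM + 1) in all other nuclei and in cluster 8, joined by a line for each sample (blue QCM, orange SCM, symbols by replicate number). All lines climb toward cluster 8 except that of Cyp2j11 in SCM replicate 1, where no UMI was counted; Slc5a12 has the widest spread, from 0.746 to 52.4 CPM.

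Detection per nucleus was compared after thinning each nucleus to 1000 UMIs, which left out nuclei with fewer. At least 1 UMI of any of the 7 markers was then found in 26.0% to 45.5% of cluster 8 nuclei across samples. In cluster 11, whose tuft cell markers summed to 568 CPM and which should lack these genes, it was found in 0% to 2.38% of nuclei. Median depths before thinning, among the nuclei kept, were 2070 to 11314 UMIs in cluster 8 and 1809.5 to 8591.5 in cluster 11. The lists used further on were not confined in this way. At least 1 UMI of the classical enterocyte markers was found in 81.2% to 100% of thinned cluster 11 nuclei and 81.8% to 100% of cluster 8 nuclei, and of the xenobiotic genes in 82.1% to 100% and 90.9% to 100%. In QCM replicate 1 the classical markers averaged 6.36 UMIs per thinned nucleus in cluster 11 and 11.2 in cluster 8. SCM replicate 1 had only 3 such nuclei in cluster 11. For Slc9a3 alone the mean over samples was 16.8% of nuclei in cluster 8 and 0.56% in cluster 11, and without thinning 39.6% and 2.3%. Sis, the sucrase-isomaltase of the brush border, was found in 61.6% and 24.4%.

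Ppargc1a (ENSMUSG00000029167), a coactivator that drives mitochondrial gene programs, was found in 15.7% of thinned cluster 8 nuclei and 4.17% of those of cluster 11. Apoa4, an apolipoprotein of chylomicrons, behaved differently in QCM replicate 1. There it was found in 61.5% of cluster 8 nuclei but also in 54.8% of cluster 11 nuclei. The part of RNA from other nuclei in these shares was not tested. In the other samples Apoa4 was found in 4.84% to 14.3% of cluster 8 nuclei.

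Among 7740 genes with a symbol, a UMI in cluster 8 in each sample and a mean of at least 20 CPM there, 285 had a ratio of at least 1, which is 2-fold, and 268 of these were higher in 6 of 6 samples. A ratio of at least 2 was found for 75 genes and of at least 3 for 23. Of the 11972 genes of at least 5 CPM in cluster 8, 1.38% were 2-fold or more lower, and minimums set on cluster 8 remove genes that are low there, so the shares in the 2 directions are not compared. The 10 genes with the largest ratios were Cyp2c53-ps, Slc13a2, Slc2a2, G6pc, Nlrp9b, 2010106E10Rik, Fmo5, Aspa, Slc9a3 and Cyp2c29. Slc2a2 (ENSMUSG00000027690, chromosome 3, 28697903 to 28731359, plus strand) encodes GLUT2, through which glucose and fructose leave the cell, and stood at 163, 113 and 156 CPM in QCM and 108, 152 and 129 CPM in SCM against 5.08 to 27.1 CPM elsewhere. G6pc, the catalytic subunit of glucose-6-phosphatase, had a ratio of 3.88. It was highest in both replicate 1 libraries, at 282 CPM in SCM and 114 CPM in QCM, with 21.1 to 34.3 CPM in the other samples. Cyp2c29, a cytochrome P450, stood at 1454 CPM in QCM replicate 1 and 1311 CPM in SCM replicate 2 and at 240.1 to 366 CPM in the other samples. Cyp2c53-ps is annotated as a pseudogene of the Cyp2c family, and reads of near-identical Cyp2c copies could be split between them by the counting.

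Genes at the other end were taken among those with a mean of at least 20 CPM in the other nuclei. Ptprn2, a protein of the secretory granules of endocrine cells, had the lowest ratio at -2.32, with a mean of 25.1 CPM in cluster 8 and 117 CPM in the other nuclei. Bace2, a membrane protease, followed at -2.22, with a mean of 3.24 CPM in cluster 8 and no UMI in SCM replicate 1. Kcnb2, a voltage-gated potassium channel, was at -2.08, with a mean of 18.7 CPM. With samples pooled, Ptprn2 stood at 25.2 CPM in cluster 8, 22.3 CPM in cluster 5 and 2092 CPM in cluster 9. Kcnb2 stood at 19.0, 18.2 and 1430 CPM in these clusters. Cluster 8 ranked 12 for Ptprn2 and 9 for Kcnb2 among all clusters, and was lowest for Bace2. The low ratios of Ptprn2 and Kcnb2 therefore do not mean a level below that of each other cluster.

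Promoter sequences were read for genes with a ratio of at least 2. Factors of the HNF4, HNF1 and GATA families bind such regions in enterocytes, and the sequences let these genes be compared. RefSeq entries on GRCm38.p6 were matched by symbol for 60 of the 75 genes with a ratio of at least 2, giving 71 promoters. The 250 bases before the start site are printed 5′ to 3′ on the gene's own strand, with motif matches in capitals. The HNF4-type motif searched was CAAAGNNCA. The motif of the HNF1 type was GTTAAT. For factors of the GATA family the letters searched were AGATAA, and each motif was searched on both strands. The genes printed were picked from the matched set, and HNF4-type matches are more frequent among them than in that set. Where a gene had several starts, only a start with such a match is printed. The regions are chr11:78422235-78422484 for Slc13a2, chr9:123678833-123679082 for Slc6a20a, chr1:87101607-87101856 for Alpi, chr10:81092592-81092841 for Creb3l3, chr2:13491877-13492126 for Cubn, chr5:145879855-145880104 for Cyp3a11 (these 6 on the minus strand) and chr11:101367466-101367715 for G6pc (plus strand).
Slc13a2: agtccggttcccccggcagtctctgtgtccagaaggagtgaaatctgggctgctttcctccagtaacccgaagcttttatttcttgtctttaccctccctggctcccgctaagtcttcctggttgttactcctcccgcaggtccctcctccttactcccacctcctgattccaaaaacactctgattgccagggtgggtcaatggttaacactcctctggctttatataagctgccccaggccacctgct
Slc6a20a: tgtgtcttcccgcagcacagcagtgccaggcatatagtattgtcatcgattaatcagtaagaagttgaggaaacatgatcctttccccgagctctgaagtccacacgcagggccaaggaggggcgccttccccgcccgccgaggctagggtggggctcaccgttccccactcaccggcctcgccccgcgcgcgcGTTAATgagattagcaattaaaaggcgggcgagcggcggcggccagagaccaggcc
Alpi: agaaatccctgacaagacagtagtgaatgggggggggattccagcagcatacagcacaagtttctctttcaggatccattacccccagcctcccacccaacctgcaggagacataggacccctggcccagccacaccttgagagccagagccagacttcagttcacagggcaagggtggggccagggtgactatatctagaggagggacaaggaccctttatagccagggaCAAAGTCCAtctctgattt
Creb3l3: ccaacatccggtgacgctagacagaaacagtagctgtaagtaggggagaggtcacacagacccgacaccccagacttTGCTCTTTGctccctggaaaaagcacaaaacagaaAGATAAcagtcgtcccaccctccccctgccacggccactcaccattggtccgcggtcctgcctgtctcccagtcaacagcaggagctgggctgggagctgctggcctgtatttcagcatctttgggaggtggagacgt
Cubn: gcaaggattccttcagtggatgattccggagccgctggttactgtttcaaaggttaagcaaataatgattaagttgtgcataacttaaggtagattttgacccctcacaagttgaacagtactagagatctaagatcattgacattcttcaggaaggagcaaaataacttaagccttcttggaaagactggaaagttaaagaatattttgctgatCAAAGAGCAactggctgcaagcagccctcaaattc
Cyp3a11: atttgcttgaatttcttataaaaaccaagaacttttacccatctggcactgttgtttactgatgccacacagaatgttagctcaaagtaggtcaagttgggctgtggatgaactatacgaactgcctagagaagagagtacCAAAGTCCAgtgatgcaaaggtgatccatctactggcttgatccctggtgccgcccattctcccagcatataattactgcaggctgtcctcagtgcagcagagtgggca
G6pc: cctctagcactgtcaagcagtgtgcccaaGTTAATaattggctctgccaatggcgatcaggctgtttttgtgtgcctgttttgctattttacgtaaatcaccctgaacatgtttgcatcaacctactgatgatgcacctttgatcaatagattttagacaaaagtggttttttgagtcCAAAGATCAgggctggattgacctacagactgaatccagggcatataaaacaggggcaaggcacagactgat

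The HNF4-type match lay 19 bases before the start in Alpi, the intestinal alkaline phosphatase, 35 in Cubn, the receptor for intrinsic factor with vitamin B12, 72 in G6pc and 109 in Cyp3a11, a cytochrome P450 with broad substrates. In Creb3l3, a membrane-bound transcription factor of lipid handling, it lay 173 bases before the start on the opposite strand, beside an AGATAA at 138. G6pc held a GTTAAT at 221 bases and Slc6a20a one at 56, and Slc13a2 held none of the 3 motifs in this window. In these 250 bases CAAAGNNCA was present in 10 of the 71 promoters (14.1%), against 4.76% of 7777 promoters of the eligible genes and 5.49% of all 32851 promoters of the table. For GTTAAT the shares were 9.86%, 4.01% and 6.43%, and for AGATAA 9.86%, 5.81% and 9.99%. Besides the genes printed, Apol7a, Bco1, Cyp3a25 with a pair of overlapping promoters, and Nat8 held the HNF4-type match. A match is a description of these letters and not a bound site, and the 75 genes had been chosen by their ratios.

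Markers of enterocytes in general followed the label. Of 20 classical enterocyte markers, 14 had a ratio of at least 1, 19 were higher in 6 of 6 samples and 17 had their highest pooled level in cluster 8, while 9.76% of all genes of at least 5 CPM had theirs there. The list's median ratio was 1.51. Sis had a ratio of 2.20, with 1947, 1754 and 1739 CPM in QCM and 837, 2394 and 1816 CPM in SCM against 83.5 to 473 CPM in the other nuclei. Alpi had a ratio of 2.52 and ranged from 8.28 CPM in SCM replicate 1, which is 1 UMI, to 109 CPM in SCM replicate 2. The fatty acid binding proteins Fabp1 and Fabp2 had the lowest ratios of the list, 0.58 and 0.48, and Fabp1 was higher in cluster 1 than in cluster 8 when samples were pooled. QCM replicate 1 gave 1639 of the 8110 cluster 1 nuclei, at a median of 7982 UMIs, and no order by sample is given here.

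For the brush border, enzymes and the proteins that build the microvilli were counted apart, with no test between them. Of 17 enzymes of at least 5 CPM, 12 had a ratio of at least 1 (median 1.79), and of 16 structural genes 3 had (median 0.68). Ggt1, which splits glutathione at the cell surface, had a ratio of 3.09, the peptidase Mme 2.99 and the meprin subunit Mep1b 2.68. Among structural genes, Espn, an actin bundler, had a ratio of 1.93, the protocadherin Cdhr5 1.46 and Mall, a membrane proteolipid, 1.03, while Vil1, which bundles actin in the microvillus core, was at 0.69.

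Transport genes were counted by substrate, with no test between the lists. Of 9 genes of sugar uptake and fructose use, 7 had a ratio of at least 1 (median 1.84), led by Slc2a2 and by the fructose carrier Slc2a5 at 3.13. Slc2a5 stood at 184, 79.8 and 30.6 CPM in QCM and 232, 55.2 and 48.5 CPM in SCM, against 4.71 to 66.4 CPM elsewhere. The high sample of each medium was replicate 1, and these are the libraries that shared many cell barcodes. Of 13 amino acid and peptide carriers only Slc6a20a, the peptide carrier Slc15a1 (2.55) and the light chain Slc7a9 (1.99) had a ratio of at least 1, and the median was 0.36. Of 14 ion and acid-base genes, Slc9a3 and the plasma membrane calcium pump Atp2b1 (1.00) did, with a median of 0.40. Of 12 genes of organic anion, vitamin and nucleoside transport 6 did, with a median of 1.04. The chloride-secretion genes Slc12a2 (-0.65), Kcnq1 (-0.40) and Cftr (-0.31), which are known for crypt cells, were lower in cluster 8 in 6 of 6 samples.

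Of 22 lipid absorption and lipoprotein genes, 16 had a ratio of at least 1 and 20 were higher in 6 of 6 samples (median 1.19), a share set against 11.0% of all genes of at least 5 CPM. Abca1, which exports cholesterol, had a ratio of 3.70, with 95.6, 76.3 and 53.7 CPM in QCM and 49.7, 97.3 and 55.2 CPM in SCM against 2.53 to 11.5 CPM elsewhere. Mogat2, which resynthesises triglyceride from absorbed monoglyceride, was at 2.03. Apoa1 was at 2.09, with high levels in QCM replicate 1 (759 CPM) and SCM replicate 2 (1084 CPM) and 99.4 to 216 CPM in the other samples.

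Of 31 xenobiotic genes, 19 had a ratio of at least 1 and 26 of the list had their highest pooled level in cluster 8 (median 1.25). Cyp3a11 was at 3.11 and Cyp2b10, a target of the nuclear receptor CAR, at 2.99, and Nr1i3, which encodes CAR, was itself at 1.23. For retinoid metabolism it was 4 of 8 genes (median 0.96), led by the carotenoid-cleaving enzymes Bco1 (2.17) and Bco2 (2.02). For fatty acid oxidation it was 2 of 12 genes (median 0.59), Acaa1b at 2.38 and the kinase Pdk4 at 1.52, the latter at 0.746 to 16.6 CPM.

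Of 24 enterocyte transcription factors, 6 had a ratio of at least 1, and the median of 0.28 was closer to that of all genes. Creb3l3 was at 2.35, the nuclear receptors Nr1h4, Ppara and Nr1i3 at 1.50, 1.41 and 1.23, and Maf, a factor known from the villus, at 1.55. Ppargc1a at 2.14 was the most even of them, with 158, 159 and 150 CPM in QCM and 166, 161 and 157 CPM in SCM against 30 to 44.8 CPM in the other nuclei. Hnf4a and Hnf4g differed little from the other nuclei, at 0.17 and 0.25. Hnf4g stood at 508 to 737 CPM in cluster 8 and 329 to 598 CPM elsewhere. Thinned to 1000 UMIs, it was found in 42.6% of cluster 8 nuclei and 48.2% of cluster 11 nuclei.

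Genes known to be zoned along the villus were not all raised alike. Of 6 genes of the villus middle, 4 had a ratio of at least 1 (median 1.75), of 8 genes of the tip 4 had (median 1.22), and of 4 genes of the base 1 had, Il18 at 1.71 (median 0.30). The summed tip list stood at 2175 CPM in QCM replicate 1 and 2050 CPM in SCM replicate 2 but at 497 to 655 CPM in the other 4 samples. Apoa1 and Apoa4 are members of this list, and Apoa1 was high in the same samples. In the other nuclei the list summed to 1283 CPM in QCM replicate 1 and to 232 to 339 CPM in the other samples. Slc28a2, a nucleoside carrier, was at 0.79, and Egfr at -0.39. Of 5 genes of the proximal small intestine of at least 5 CPM, 2 had a ratio of at least 1, Cyp2b10 at 2.99 and Lct, the lactase, at 2.58 (median 0.58). Of 4 distal genes 2 had, the bile acid carrier subunits Slc51b at 2.29 and Slc51a at 1.12 (median 0.98). The summed distal list ranked 7 among the 15 clusters when samples were pooled, and samples weigh unequally in each cluster. In SCM replicate 3 it was lower in cluster 8 (120 CPM) than in the other nuclei (143 CPM). In QCM it was higher in cluster 8, at 105, 201 and 138 CPM against 82.4, 185 and 126 CPM. The same held in SCM replicates 1 and 2, at 215 and 198 CPM against 113 and 174 CPM.

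Most genes of other cell types were lower in cluster 8 than in the other nuclei. Of 5 stem cell markers of at least 5 CPM none had a ratio of at least 1 and the median was -0.97. Lgr5, the stem cell receptor, stood at 117, 275 and 194 CPM in QCM and 307, 217 and 172 CPM in SCM, below the other nuclei of each sample. It was the lowest of the 15 clusters when samples were pooled. QCM replicate 1, where Lgr5 was lowest, gave the most cluster 8 UMIs to that pool. Medians were -0.67 for 5 proliferation genes, -0.51 for 4 goblet, -0.61 for 6 Paneth, -0.91 for 2 enteroendocrine and -0.77 for 5 fetal and revival genes. Tuft, fibroblast, immune and endothelial markers were below 5 CPM, with sums of 1.85 to 9.7 CPM for 6 tuft, 0 to 8.28 CPM for 6 fibroblast and 0 to 5.56 CPM for 5 immune and endothelial genes. Among M cell markers Tnfaip2, a gene also expressed outside M cells, had a ratio of 2.22 at 7.05 to 24.9 CPM, while Spib and Ccl9 were below 5 CPM.

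**Figure D3:**
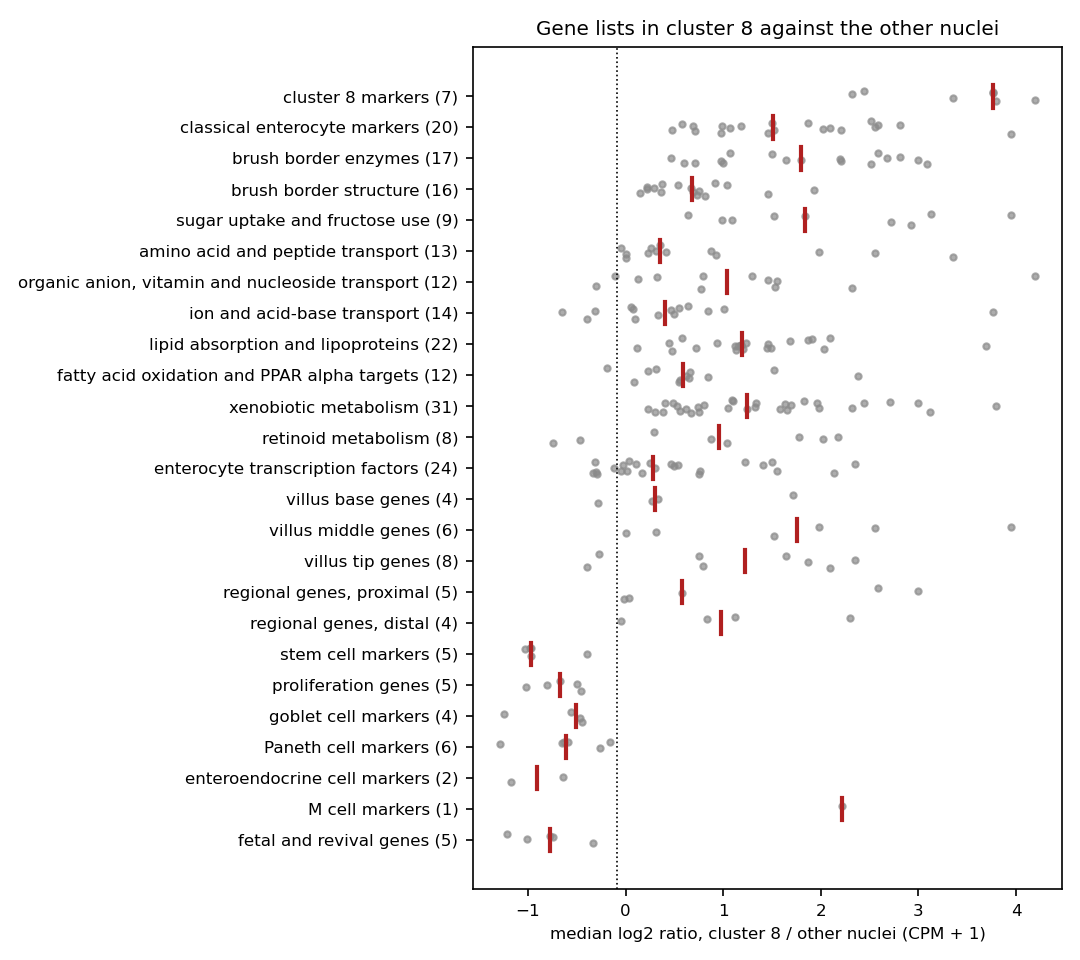
Each grey point is a gene of at least 5 CPM, placed by its median over 6 samples of the log2 ratio of cluster 8 to the other nuclei (x axis); rows are gene lists with the number of genes in brackets, red bars are list medians and the dotted line is the median of all 11972 genes, -0.09. Enzyme, sugar, lipid and xenobiotic lists have medians between 1.19 and 1.84, and the lists of other cell types lie below 0 apart from the single M cell gene.

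Among the other 14 clusters, cluster 5 with 2253 nuclei had the highest correlation with cluster 8. The ratios of each cluster to all nuclei pooled correlated with those of cluster 8 at r = 0.44 across 11972 genes for cluster 5. For the rest they correlated at 0.06 or less, as a description across genes that share libraries and depth. Slc9a3 had its next highest pooled level in cluster 5, at 41.5 CPM against 138 CPM in cluster 8. Slc13a2 (1.51 CPM) and G6pc (3.4 CPM) were low in cluster 5, against 34.4 and 68.4 CPM in cluster 8. Summed lists did not all give this order. Pooled, cluster 1 was above cluster 5 for classical markers (5888 against 3912 CPM) and lipid genes (4725 against 3249 CPM). It was below cluster 5 for brush border enzymes (1241 against 1579 CPM) and structural genes (2011 against 3099 CPM). Samples weigh unequally in each cluster.

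Whether SCM changed gene levels within cluster 8 was asked with sums per sample. Of 10011 genes tested by edgeR's quasi-likelihood test, 0 passed at a Benjamini-Hochberg adjusted p under 0.05 (0.0%), the smallest adjusted p was 0.9996, and DESeq2 also called 0. Before adjustment 316 genes (3.16%) had p under 0.05 in edgeR, 91 of them higher in SCM (0.909%) and 225 lower (2.25%). In DESeq2 it was 267 of 24598 genes (1.09%). The unadjusted edgeR count was 92 (0.853%) without SCM replicate 2, 440 (4.09%) without SCM replicate 1, 539 (5.01%) without QCM replicate 2 and 732 (7.2%) without SCM replicate 3. Without QCM replicate 1 it was 150 (1.48%), and the balance turned, with 92 higher and 58 lower. With replicate numbers 2 and 3 alone it was 297 (2.93%), 189 higher and 108 lower. With the sample labels' 3 against 3, SCM lay wholly above QCM for 331 genes (3.31%) and wholly below for 410 (4.1%). The values that follow are those of genes with the smallest unadjusted p, and none of them passed the adjusted threshold.

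Bicd1, an adaptor for dynein-driven transport, stood at 19.1, 28.2 and 38 CPM in QCM and 108, 149 and 53.7 CPM in SCM, with a log2 difference of 1.87 ± 0.42 (SE). Anxa1, a phospholipid-binding protein known from wound repair, stood at 9.16, 4.7 and 5.56 CPM in QCM and 16.6, 35.7 and 17.2 CPM in SCM (1.75 ± 0.48). The magnesium channel Trpm6 stood at 5.5, 4.7 and 6.48 CPM in QCM and 16.6, 68.1 and 12.7 CPM in SCM (2.60 ± 0.65). For Bicd1 all SCM samples lay above all QCM samples, and for Anxa1 and Trpm6 SCM replicates 2 and 3 did, with SCM replicate 2 the highest of all 3 genes. The 16.6 CPM of Anxa1 and of Trpm6 in SCM replicate 1 were 2 UMIs each, and without SCM replicate 2 the estimate for Trpm6 was 1.21. The calcium-activated chloride channel Ano1, at 3.17 ± 0.75, overlapped between the media because SCM replicate 1 held 8.28 CPM, a single UMI, while SCM replicate 2 held 164 CPM. Mgam2-ps, annotated beside the maltase-glucoamylase family, was at 1.88 ± 0.54 and also overlapped. Without SCM replicate 2 the estimates for Ano1 and Mgam2-ps were 1.86 and 1.24.

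Omd, an extracellular matrix proteoglycan gene, stood at 12.5, 20 and 11.1 CPM in QCM and at 0, 1.62 and 2.24 CPM in SCM (-2.82 ± 0.61). Smim24, a small membrane protein, stood at 282, 170 and 227 CPM in QCM and 74.6, 101 and 125 CPM in SCM (-1.12 ± 0.29). The proteasome subunit Psmb10 (-1.52 ± 0.42), the phosphatase Phpt1 (-1.25 ± 0.36) and the small GTPase Rit1 (-1.83 ± 0.54) also had estimates below 0. In all 5 genes SCM replicates 2 and 3 lay below each QCM sample. SCM replicate 1 held 9 UMIs of Smim24 but only 0 or 1 of the other 4 genes, where 3 counts would be 24.9 CPM, and for these it cannot be placed against QCM. Ribosomal protein genes were taken by symbol, as Rpl or Rps followed by a digit, a pattern not confined to ribosomal proteins. Of 102 such genes tested, 97 had a lower estimate in SCM (median -0.97, 0 called). The median was -1.63 without SCM replicate 3 and -0.62 without SCM replicate 2. All 268 genes with a symbol of this pattern, most of them not tested, made up 7.77% ± 2.94 (SD, n = 3) for QCM and 3.91% ± 2.44 (SD, n = 3) for SCM of cluster 8 UMIs (two-sided exact permutation test, p = 0.2), and of the UMIs of the other nuclei 9.98% ± 4.77 and 4.75% ± 2.38. With the share in cluster 8 as a covariate, a fit added after seeing the data, 44 genes (0.44%) had an unadjusted p under 0.05 in edgeR. The means of this share themselves differed between the media, and the added term leaves less to estimate the spread from. The lower count therefore cannot show the part of this share. The part of this share in the single genes was not tested.

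**Figure D4:**
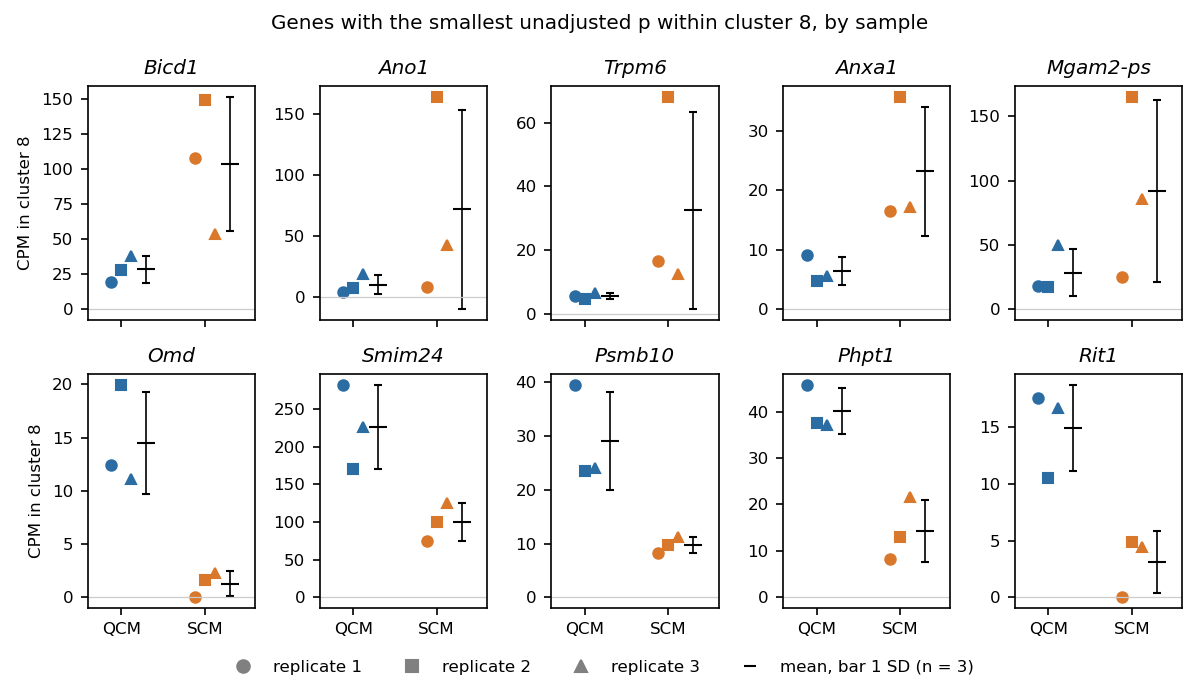
CPM in cluster 8 by medium for the 5 genes with higher and the 5 with lower estimates in SCM at the smallest unadjusted p; points are samples (symbols by replicate number), and black marks are means with bars of 1 SD (n = 3). The points of the media are apart for Bicd1 and Smim24, while for Trpm6, Anxa1, Omd, Psmb10, Phpt1 and Rit1 the point of SCM replicate 1 rests on 0 to 2 UMIs and cannot be placed, and SCM replicate 2 sets the highest value of each of the 5 higher genes.

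Enterocyte groups had no gene past the adjusted threshold between the media, and the signs of the medians of the classical, enzyme, lipid, xenobiotic and sugar lists and of the cluster markers turned when a single library was left out. Of the 5 cluster markers tested, 2 were higher and 3 lower in SCM (median -0.29), and of 19 classical markers 8 were higher and 11 lower (median -0.09), beside a median of 0.01 for all genes. Medians were 0.14 for 30 xenobiotic, 0.09 for 21 lipid, 0.01 for 16 brush border enzyme and -0.22 for 7 sugar genes. Without SCM replicate 2 they were -0.37 for xenobiotic, -0.29 for lipid, -0.39 for enzyme and -0.44 for classical genes. Without QCM replicate 1 they were 0.50, 0.17, 0.54 and 0.31, and 0.08 for the cluster markers. Among structural genes 14 of 15 had a higher estimate in SCM (median 0.27), with the brush border motor Myo1a at 1.20 ± 0.46 and an unadjusted p = 0.0252. Without SCM replicate 2 that median was 0.0031 and Myo1a was at 0.31. Of the lipid genes, Apoc3 had 143, 15.3 and 50 CPM in QCM and 0, 13 and 17.2 CPM in SCM (-2.40 ± 0.76), with QCM replicate 1 far above the rest and an estimate of -1.23 without it. Mep1b was at 1.44 ± 0.65, set by 451 CPM in SCM replicate 2, and without that sample its estimate was -0.16.

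Of the fetal and revival, Paneth, goblet and proliferation lists, 0 genes passed within cluster 8 in edgeR. The 4 goblet and 5 proliferation genes tested all had lower estimates in SCM, with medians of -0.99 and -0.92, and -0.43 and -0.40 without QCM replicate 1. The 7 fetal and revival genes summed to 79.9, 43.4 and 49.1 CPM in QCM and 82.8, 496 and 107 CPM in SCM, and in the other nuclei to 61.4 to 111 CPM in QCM and 177 to 653 CPM in SCM. Clu, a chaperone marking revival stem cells, stood at 27.8, 7.05 and 13.9 CPM in QCM and 49.7, 114 and 31.3 CPM in SCM (1.87 ± 0.57), and its estimate was 0.95 without SCM replicate 2. Msln, a surface glycoprotein, was at 3.11 ± 0.96 through 240 CPM in SCM replicate 2, and without that sample it was at -0.10. Only 4 of the 7 passed the filter on low counts, and their median was 1.81 with all samples and 0.63 without SCM replicate 2.

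The 6 Paneth genes summed to 1773, 548 and 357 CPM in QCM and to 356, 222 and 239 CPM in SCM, and in the other nuclei to 527 to 2695 and 340 to 588 CPM. In cluster 8 the lowest QCM and the highest SCM sum were nearly equal. Defa24, a Paneth defensin, stood at 813, 122 and 141 CPM in QCM and 91.1, 82.7 and 67.9 CPM in SCM (-2.25 ± 0.68), and Itln1, a lectin, at 761, 378 and 144 against 174, 120 and 119 CPM. Both transcripts were higher in the other nuclei of every sample than in cluster 8, and QCM replicate 1 was highest. The median over the 4 Paneth genes tested was -1.97, and without QCM replicate 1 it was -0.66. The part of RNA from other nuclei in these levels was not tested.

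Whether the media differed alike in cluster 8 and in the other nuclei was asked by an interaction of part and medium, with the sample as a block. The other nuclei are a mix of clusters whose make-up differed between samples. Cluster 0 held 305 of 3791 nuclei in QCM replicate 1 and 3413 of 7930 in QCM replicate 2. It held 19 of 430 in SCM replicate 1 and 1877 of 5026 in SCM replicate 2. The part of this mix in the interaction was not tested. Of 14401 genes tested by edgeR, 0 passed (0.0%), with a smallest adjusted p = 0.307, and DESeq2 called 0. Before adjustment 820 genes (5.69%) had p under 0.05, 419 with a higher (2.91%) and 401 with a lower estimate (2.78%) in cluster 8. This split changed with the scaling, to 277 higher and 709 lower under library size alone and 572 higher and 254 lower with RLE size factors. DESeq2 gave 342 of 31319 genes (1.09%). The count changed with the libraries and the terms in the fit. With all samples and terms of part by replicate number added, 39 of 14401 genes passed, 35 higher and 4 lower in cluster 8. Without SCM replicate 1, the sample of 11 nuclei, 132 of 18774 genes passed, 106 higher (0.565%) and 26 lower (0.138%) in cluster 8, and with replicate numbers 2 and 3 alone it was 38 of 18341, 35 higher (0.191%) and 3 lower (0.0164%). Without SCM replicate 3 it was 98, 95 higher (0.631%) and 3 lower (0.0199%), without QCM replicate 2 it was 35 and without SCM replicate 2 it was 8, while without QCM replicate 1 or QCM replicate 3 it was 0. Of the 132 genes, 36 were also among the 38.

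Enpep, a brush border aminopeptidase, had an interaction of 1.40 ± 0.31 (SE, log2). In cluster 8 it stood at 62.7, 78.7 and 64.8 CPM in QCM and 58, 156 and 75.3 CPM in SCM, and in the other nuclei at 20.1, 18 and 16.7 CPM in QCM and 4.56, 9.96 and 14.3 CPM in SCM. The media overlapped in cluster 8 and not in the other nuclei, where SCM was lower. Khk, the first kinase of fructose use, had an interaction of 1.15 ± 0.26, with 178, 85.7 and 125 CPM in QCM and 82.8, 122 and 122 CPM in SCM in cluster 8. In the other nuclei it stood at 160, 62.6 and 89.6 CPM in QCM and 18.2, 30.3 and 69.4 CPM in SCM, where SCM replicate 3 lay within the QCM range. Scin, an actin-severing protein, was at 1.31 ± 0.30. Their adjusted p was 0.307 in edgeR with all samples and 2.35e-05, 0.000318 and 4.29e-05 without SCM replicate 1, and 1.0 without QCM replicate 1.

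Slc2a5 had an interaction of 1.55 ± 0.41, which did not pass with all samples (edgeR adjusted p = 0.376). In the other direction, the adhesion protein Cdh13 was at -2.22 ± 0.48. It stood at 0 to 16.7 CPM in cluster 8 in both media, and in the other nuclei at 13, 4.61 and 20.7 CPM in QCM and 40.7, 124 and 36.5 CPM in SCM. Omd was at -2.76 ± 0.59, with the cluster 8 levels given before, and overlapped in the other nuclei, at 17.4 to 29.8 CPM in QCM and 20.2 to 33.4 CPM in SCM. Slc28a2 was at -3.52 ± 0.84 on 0.746 to 10.6 CPM.

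Lists of enterocyte genes had interaction estimates mostly above 0. With all samples none of their genes passed in edgeR in the fit as described. With the part by replicate number terms added, 35 of all 14401 genes passed with a higher estimate. Among these were 10 of 32 xenobiotic, 4 of 20 classical and 3 of 18 enzyme genes. So were 3 of 15 structural, 3 of 9 sugar and 1 of 22 lipid genes. Without SCM replicate 1, where 0.565% of all genes passed with a higher estimate, 16 xenobiotic, 11 classical, 7 lipid, 7 enzyme, 5 structural and 4 sugar genes did, and 1 transcription factor. In that fit 0 of the 7 cluster markers passed, 0 of the amino acid and peptide carriers and 0 of the ion genes. Of the organic anion, vitamin and nucleoside carriers 0 passed with a higher and 1 with a lower estimate. With replicate numbers 2 and 3 alone it was 10 xenobiotic, 4 classical and 4 lipid genes, and without QCM replicate 1 it was 0 of each. The median over all 14401 genes was -0.05, with 6383 estimates above 0, and library size alone in place of TMM normalization put it at -0.14. All 22 lipid genes had an estimate above 0 (median 0.61), as did 31 of 32 xenobiotic genes (median 0.87) and 19 of 20 classical markers (median 0.82), with 11, 19 and 12 of them at an unadjusted p under 0.05 against 2.91% of all genes. Under library size alone these medians were 0.53, 0.77 and 0.73, and without QCM replicate 1 they were 0.48, 0.74 and 0.57. The 6 stem cell markers all had estimates below 0 (median -0.53), among them Smoc2 at -0.65 ± 0.21, and the median without QCM replicate 1 was -0.32. Classical markers summed to 6404 to 11092 CPM in QCM and 4250 to 13507 CPM in SCM in cluster 8, and to 2330 to 6243 CPM and 1505 to 2931 CPM in the other nuclei, so the media overlapped in both parts. The lists overlap in genes and their members share libraries, and nothing is read from them beyond these counts.

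**Figure D5:**
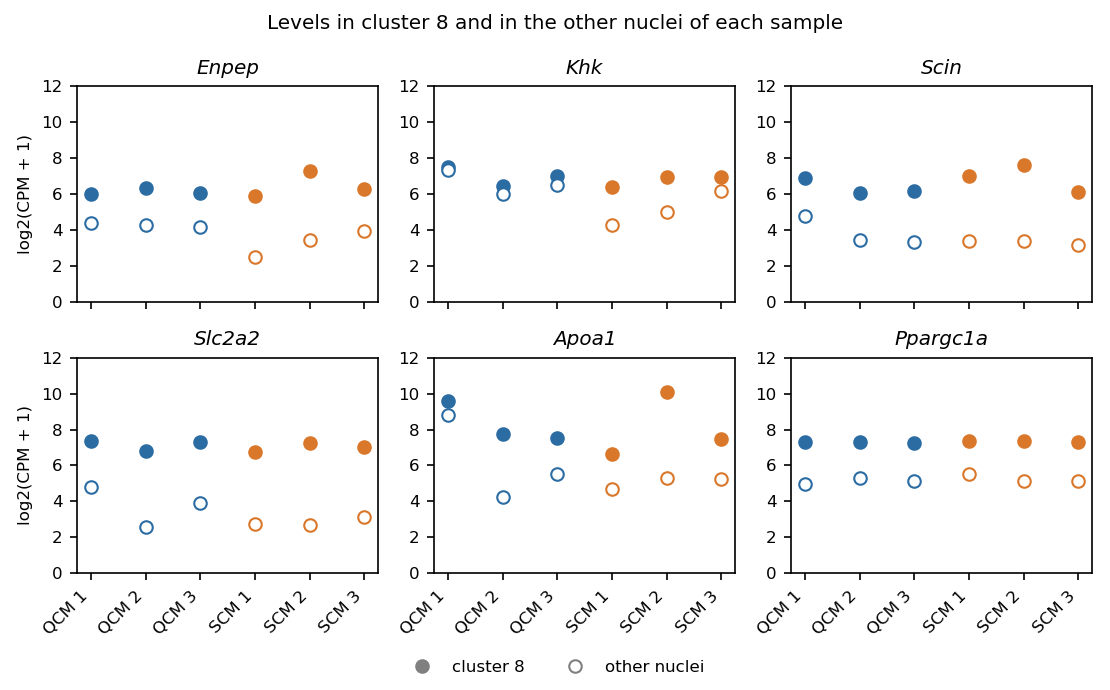
log2(CPM + 1) in cluster 8 (filled) and in all other nuclei (open) of each sample, blue QCM and orange SCM, for 6 genes. Cluster 8 lies above the other nuclei for all 6 genes in each sample, Enpep in the other nuclei runs from 4.56 to 20.1 CPM, and Ppargc1a stays between 150 and 166 CPM in cluster 8.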

How the data were processed

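Nuclei from frozen jejunal organoids had been sequenced in droplets from the 3′ end of the transcript. Per the methods of the study and the submitters' processing notes, the authors counted reads with Cell Ranger 2.1.1 on mm10, and dropped outliers in features, reads and mitochondrial fraction. The deposited matrices hold raw UMI counts per gene and nucleus. The deposited annotation of nuclei gives the sample, the cluster number and the mitochondrial fraction. Whether intronic reads were counted is not given in the sources used here. The authors made the clusters with scanpy, Harmony across samples and Leiden clustering. The series-wide matrices hold the same nuclei and were not used.

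UMI counts were summed per sample for cluster 8 and for all other nuclei, with no further filter on nuclei and no removal of doublets. Symbols were matched for 31244 of 31319 genes, and coordinates are on GRCm38. Sums entered the edgeR 4.0.16 quasi-likelihood test (R 4.3.3, TMM normalization, filterByExpr with a minimum count of 10, Benjamini-Hochberg adjustment over all genes tested, threshold 0.05), with medium as the only term within cluster 8, and with sample, part and part by medium for the interaction. Samples needed at least 10 cluster 8 nuclei, and all 6 had them. Nuclei per cluster were tested the same way with the sample's nuclei as library size. DESeq2 1.42.0 and limma 3.58.1 served as alternatives, and tables were made in Python 3.11.15. The fits were run on counts simulated with the means and library sizes of these data and a common dispersion. Changes were put only into genes with higher counts. The fit within cluster 8 recovered 20% of 2-fold and 92% of 4-fold changes, and the interaction 58% and 98%. A result of 0 genes passing therefore does not mean that no gene changed. Ratios of cluster 8 to other nuclei used a pseudocount of 1 CPM, so they understate the change of low genes.

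Members, gene lists and tests were chosen with earlier results of these data known. Named genes were the 7 markers given for the cluster, the 10 largest ratios among genes of at least 20 CPM, the 3 largest ratios in each functional list among genes of at least 5 CPM, the 5 genes in each direction within cluster 8 and the 3 in each direction of the interaction at the smallest unadjusted p, list members at an unadjusted p under 0.05, and 6 classical enterocyte genes. Genes named besides these were chosen after their values were seen, and 1 gene that met these rules is not reported here. Intervals cover counting error only. Mitochondrial genes, Mki67, Top2a and Pcna were not analysed here.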

Additional observations from a re-analysis of the deposited data

How the results depend on the processing

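Depth limits the comparison most in SCM replicate 1, where 11 nuclei gave 120710 UMIs. The share of nuclei in cluster 8 ranged from -1.02 to -0.14 (log2, SCM against QCM) when single samples were left out and did not pass under any alternative. Within cluster 8, 0 genes passed under each setting with the low-count filter, 0 in each case when single samples were left out, and 77 without that filter (39 higher, 38 lower). For the interaction, leaving out single samples gave 0 to 132 genes against 0 with all samples. At least 20 nuclei per sample, which leaves out SCM replicate 1, gave 132, no low-count filter 74, replicate numbers 2 and 3 alone (added after seeing the data) 38, and leaving out the 5% of nuclei with the most UMIs 17. RLE size factors, library size alone and DESeq2 gave 0. The difference in median UMIs per nucleus changed sign with the mean in place of the median (335) and ranged from -2322 to 2405 when single samples were left out, above 0 without QCM replicate 1 (2405) and without SCM replicate 3 (627); the cause was not tested. The markers' median ratio stayed between 3.60 and 3.83. Over 30 single genes and 435 alternatives, 385 kept their direction and side of the threshold, 48 passed it and 2 changed sign, Mep1b (-0.16; -0.16 to 1.83 when single samples were left out) and Msln (-0.10; -0.10 to 3.70), both without SCM replicate 2.

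Samples with the same replicate number in QCM and SCM correlated in their deviations from the group means at r = 0.141, 0.185 and 0.0802 across 10011 genes. Each sample correlated best with its own number. The labels do not say whether the numbers pair the samples. The main fits left the number out, and whether it pairs them was not settled. With the replicate number as a block, 0 genes passed within cluster 8 (367 at an unadjusted p under 0.05), and the difference in share was -0.57 (adjusted p = 0.653, edgeR). In the interaction, where the number entered as terms of part by replicate number, 39 of 14401 genes passed, 35 higher and 4 lower. Among the higher were 10 of 32 xenobiotic, 4 of 20 classical and 3 of 18 enzyme genes. So were 3 of 15 structural, 3 of 9 sugar and 1 of 22 lipid genes.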
